A study of Mus musculus with 12 samples.

Results

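Untreated B16-OVA tumours were the source of the 3 libraries described here, out of 12 in the series, which has 4 groups. They were chosen by the label of no treatment and not by a measured value. These tumours grow from a pigmented mouse melanoma line made to express chicken ovalbumin, an antigen that T cells can be tracked against. The mice are labelled wild type, with strain, sex and age not given in the sources used here; the tumours grew for 10 days before the other groups were treated, and all were collected on day 17. Tumours were digested with collagenase and DNase, and living cells that carry CD45 and CD11c were sorted, so Ptprc (CD45) and Itgax (CD11c) are genes of the sort and their presence is not a finding. The labels number the 3 samples but do not say that they came from separate mice, so the spread given may be technical in part. No comparison with a treated group is made, and with 3 libraries of 1 group no test is run: the levels are a description, with the SD over n = 3.

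CD45 is a phosphatase on the surface of white blood cells, and CD11c is the alpha chain of an integrin that is high on dendritic cells. The integrin is not restricted to them: many macrophages and monocytes, natural killer (NK) cells, activated T cells and some B cells also carry it. Conventional dendritic cells take up antigen in tissue and present it to T cells. The cDC1 kind, which carries XCR1, is known for presenting taken-up antigen to CD8 T cells, and the cDC2 kind mainly for priming CD4 T cells. After maturation either kind can switch on CCR7, which directs it to lymph nodes, together with inhibitory ligands such as PD-L1, and such mature regulatory cells are a known source of CCL22. Macrophages stay in the tissue, clear dead cells and are marked by complement C1q.

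The libraries held 21572377, 14462032 and 19376492 reads, recovered as whole numbers from the deposited values. A level is given in TPM: reads per length of the gene, scaled to the same total in each library over nuclear protein-coding genes. At the median gene length 1 TPM stood for 14.0, 9.28 and 12.9 reads. Values in a row are always in the order library 1, library 2 and library 3, and a ratio of the highest to the lowest library is taken on TPM + 1. Of 22378 genes, 11250 (50.3%) reached 1 TPM in all 3 libraries and 7803 (34.9%) reached 10 TPM.

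The libraries were alike across genes, with Pearson's r of log2(TPM + 1) of 0.939 to 0.968 over 22378 genes that share a library and its depth, but each stood apart for a set of genes. Of 9094 genes with a mean of at least 10 TPM, 790 (8.69%) were over 4-fold apart between the highest and the lowest library, and the median ratio was 1.60. Library 1 was highest for 437 of the 790 (55.3%), library 2 for 146 (18.5%) and library 3 for 207 (26.2%). Library 1 was lowest for 221 of the 790 (28.0%), library 2 for 181 (22.9%) and library 3 for 388 (49.1%). These shares are the background for the lists below. Where a count of genes highest or lowest in a library has no fold limit, the share of all genes was not counted. Library 1 carried most of the neutrophil, red cell and macrophage RNA, library 2 most of the T cell RNA, and library 3 the melanocyte RNA and the least B cell RNA. Mitochondrial genes took 8.26% to 9.27% of reads, and the predicted gene Gm23935 took 6.65%, 13.3% and 10.3%. Of 1988 genes for receptors of smell, pheromones and trace amines, which white blood cells are not expected to use, 11.7%, 4.58% and 20.2% had at least 1 read, so a few reads of a gene are near background. In bulk RNA, fewer cells of a type and less RNA per cell cannot be told apart.

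The most abundant transcript was Actb (beta-actin) at 17809 ± 2150 TPM, and the next was Cd74, the invariant chain that escorts MHC class II molecules, at 13613 ± 4752 TPM. B2m, the light chain of MHC class I, was 4th at 7506 ± 1598 TPM. Among the 30 highest genes were also H2-Ab1, H2-Eb1, H2-D1 and H2-K1, heavy or beta chains of class II and class I, and Psap, a lysosomal protein. The chemokine Ccl5 was 28th, at 2471, 2542 and 2627 TPM. Its ratio of 1.06 made it one of the steadiest genes described here. The other genes of the 30 were Eef1a1, Eef2, Tmsb4x, Tpt1, Hsp90ab1, Fau, Ptma, Junb and ribosomal protein genes.

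**Figure D1:**
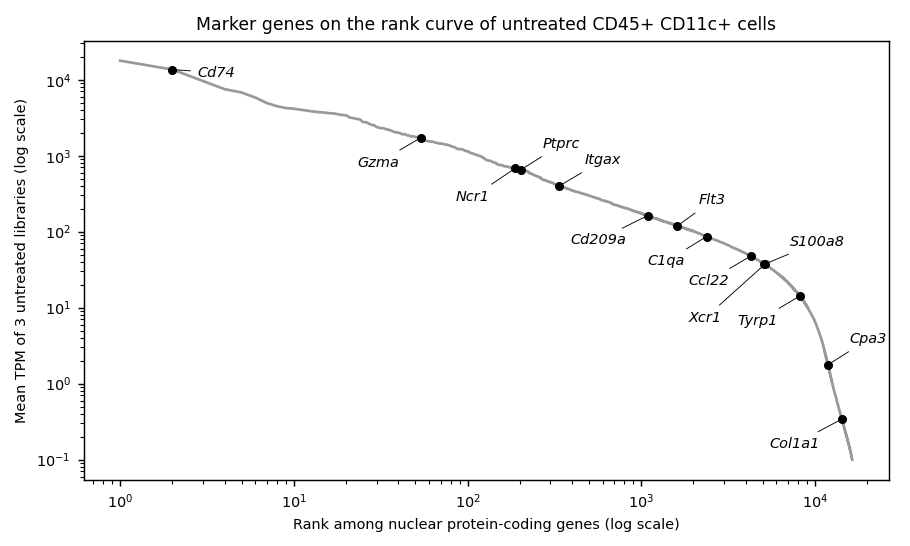
Mean TPM of the 3 untreated libraries (log scale) against rank among nuclear protein-coding genes (log scale), with marker genes as black points. Gzma (rank 54), Ncr1 (188) and the 2 genes of the sort, Ptprc (203) and Itgax (337), lie above the dendritic cell genes Cd209a (1088), Flt3 (1615) and Xcr1 (5146).

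The genes of the sort ranked high in each library. Itgax (chr7:128129547-128150657, GRCm38) was at 647, 250 and 299 TPM. Ptprc (chr1:138062861-138175708) was at 854, 571 and 529 TPM. Both were highest in library 1, and Itgax stood at the percentile of 98.0 ± 1.0 (SD, n = 3) of nuclear protein-coding genes.

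Flt3, the receptor for the growth factor that dendritic cells depend on (chr5:147330741-147400489), was at 196, 85.2 and 77.4 TPM. Zbtb46, a transcription factor of the conventional lineage, was at 60.3, 22.1 and 25.9 TPM. Library 1 was highest for both, as it was for all 6 genes of the conventional dendritic cell list, which also holds Kmo, Haao, Cbfa2t3 and Dpp4. All 6 were at 10 TPM or more in every library, where 34.9% of all genes were, and their sum was 942, 412 and 314 TPM. Haao and Dpp4 were over 4-fold apart, 2 of 6 against 8.69% of all genes of that level.

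Markers of both cDC1 and cDC2 were present in every library. Xcr1, the receptor for the chemokine XCL1 (chr9:123852315-123862029), was at 48.8, 33.3 and 29.0 TPM. Clec9a, a receptor for dead cells, was at 149, 48.6 and 51.0 TPM, and Batf3, a transcription factor cDC1 need, was at 83.7, 23.2 and 17.7 TPM. Library 1 was highest for 9 of the 12 genes of the cDC1 list. Of the 12, 2 were over 4-fold apart (16.7%, against 8.69% of all genes of that level). Irf8, which plasmacytoid and B cells also use, was steady at 395, 489 and 550 TPM. Itgae went the other way from most of the list, at 11.8, 83.4 and 39.2 TPM: it codes for CD103, which T cells carry too, and library 2 was highest for all 17 T cell genes. The part of T cells in its level was not tested.

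Cd209a, a lectin of cDC2 and monocyte-derived cells (chr8:3743397-3748984), was at 214, 133 and 140 TPM. Per length it exceeded Xcr1 in every library, with a mean log2 ratio of Xcr1 to Cd209a of −2.14 ± 0.14 (SD, n = 3), a pair of genes chosen after their values were seen. Irf4, a transcription factor of cDC2, was at 129, 117 and 115 TPM. None of the 10 genes of this list was over 4-fold apart, a count near the 8.69% of all genes of that level. They did not follow one order: Sirpa was highest in library 1 (356, 121 and 132 TPM), while Clec10a (25.6, 54.8 and 67.7 TPM) and Mgl2 (5.50, 17.8 and 25.0 TPM) were lowest there. The median gene of the cDC2 list exceeded that of the cDC1 list in 3 of 3 libraries, at 127, 101 and 115 TPM against 49.0, 30.6 and 34.1 TPM. The sums did not hold that order: the cDC2 list summed to 1584, 1022 and 1453 TPM and the cDC1 list to 1742, 1131 and 1306 TPM, of which Irf8, Wdfy4 (627, 229 and 200 TPM) and Naaa (254, 147 and 330 TPM) made up most.

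Transcripts of most genes of the mature regulatory list, a program named in the title of the series, were detected without treatment. Bulk RNA cannot show that the same cells held them together. Tmem123 and Marcksl1 had the highest means of the list, at 489 and 396 TPM. Ccr7, the lymph node homing receptor, was at 143, 356 and 296 TPM. Fscn1, which bundles actin in the extensions of mature dendritic cells, was at 82.8, 180 and 165 TPM. Both were lowest in library 1, the library with most Flt3. Ccr7 is also used by naive T cells, whose genes were lowest in library 1 as well, and their part was not tested.

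Ccl22, a chemokine that draws CCR4-bearing regulatory T cells, was at 17.3, 53.1 and 73.0 TPM, from 164, 334 and 636 reads. Its relative Ccl17 had 0, 17 and 26 reads, or 0, 12.2 and 13.5 TPM, where 0 reads allow up to 1.43 TPM. Both chemokines were thus lowest in library 1. Of the inhibitory ligands in the list, Cd274 (PD-L1) was at 157, 93.0 and 219 TPM and Pdcd1lg2 (PD-L2) at 22.0, 13.4 and 26.4 TPM, both lowest in library 2. Il4i1, an enzyme that degrades aromatic amino acids, was at 95.4, 59.4 and 23.0 TPM and was highest in library 1. Lamp3 had 9, 8 and 0 reads and stayed under 1 TPM. So 17 of 19 genes reached 1 TPM in every library, against 50.3% of all genes. Of the 14 with a mean of at least 10 TPM, 2 were over 4-fold apart (14.3%, against 8.69% of all genes of that level). These were Ccl22 and Il4i1, in opposite directions.

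Plasmacytoid dendritic cells make type I interferon and carry little CD11c in mice. Siglech, a surface receptor of these cells, was at 156, 449 and 439 TPM. Ccr9 was at 16.5, 46.5 and 113 TPM, Klk1 at 43.5, 117 and 337 TPM, and Cox6a2 at 38.2, 157 and 224 TPM. The last 3 were over 4-fold apart (37.5% of the 8 genes, against 8.69% of all genes of that level). Library 1 was lowest for 6 of the 8. Tcf4 and Spib, transcription factors of this lineage, varied little, at 44.8, 46.8 and 40.8 TPM and at 139, 132 and 93.0 TPM.

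**Figure D2:**
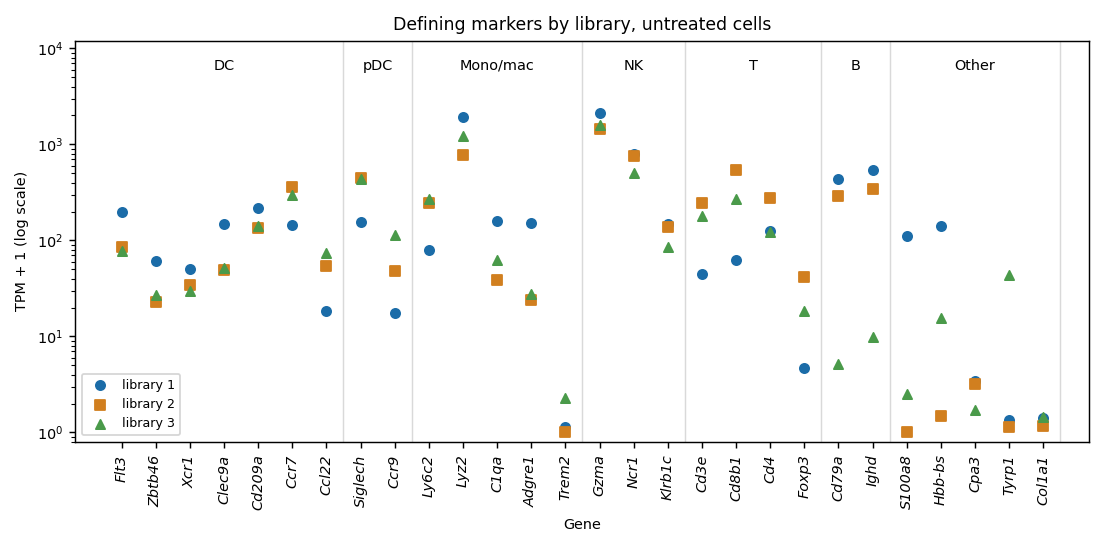
TPM + 1 (log scale) of marker genes in each untreated library (circle, square and triangle for libraries 1, 2 and 3), grouped by the cell type they mark. NK genes lie close together in the 3 libraries, whereas Cd79a (430, 290 and 4.21 TPM), S100a8 (110, 0 and 1.54 TPM) and Tyrp1 (0.347, 0.131 and 42.4 TPM) spread widely.

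Monocyte genes were led by Lyz2, lysozyme of myeloid cells, at 1930, 780 and 1209 TPM. Ccr2, the receptor that brings monocytes into tissue, was at 145, 146 and 151 TPM, with a ratio of 1.04. Ly6c2, which marks inflammatory monocytes in mice but also some T and plasmacytoid cells, was at 78.8, 247 and 272 TPM. Chil3, Fn1 and Hp were over 4-fold apart and lowest in library 2. They were 37.5% of the list's genes with a mean of at least 10 TPM, against 8.69% of all such genes. Library 2 was lowest for 8 of the 10 genes.

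Macrophage genes differed between the libraries more often than the genes of any dendritic cell list. Of 14 with a mean of at least 10 TPM, 10 were over 4-fold apart (71.4%, against 8.69% of all genes of that level). Library 1 was highest for 8 of the 10, against 55.3% of all genes over 4-fold apart. C1qa, a chain of the complement starter C1q (chr4:136895917-136898803), was at 159, 38.0 and 61.6 TPM. Adgre1, which codes for the F4/80 antigen, was at 150, 22.8 and 26.9 TPM. Mrc1, the mannose receptor, was at 75.7, 2.09 and 18.8 TPM. These 3 genes were all highest in library 1, but 2 kinds of macrophage gene did not go together. Mertk, a receptor for dying cells, had 884, 11 and 7 reads, and Cd163, a haemoglobin scavenger receptor, had 401, 32 and 29 reads. Spp1 (osteopontin), at 11.3, 9.20 and 150 TPM, Gpnmb, at 0.263, 1.08 and 28.7 TPM, and Arg1, at 0.550, 0.830 and 6.59 TPM, were highest in library 3. Gpnmb is also a melanocyte gene, and library 3 held the melanocyte RNA, whose part was not tested. Trem2, a lipid receptor of tumour macrophages, had 3, 0 and 24 reads, and Folr2 had 4, 1 and 6.

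The summed macrophage list and the summed cDC1 list did not hold one order. The log2 of their ratio was 0.48, −0.30 and −0.02, a mean of 0.05 ± 0.40 (SD, n = 3), and 3 values cannot give a two-sided p below 0.25 in an exact sign-flip test. The sign of the mean depends on the measure: it was −0.46 with medians in place of sums, and −1.36 with no correction for gene length.

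Since most macrophage genes were highest in library 1, promoters are shown for 2 of the C1q chains, as the 250 bases before the start site in RefSeq (GRCm38.p6). Capitals mark AGGAAGT or its reverse complement, the core bound by ETS factors such as PU.1.
C1qb: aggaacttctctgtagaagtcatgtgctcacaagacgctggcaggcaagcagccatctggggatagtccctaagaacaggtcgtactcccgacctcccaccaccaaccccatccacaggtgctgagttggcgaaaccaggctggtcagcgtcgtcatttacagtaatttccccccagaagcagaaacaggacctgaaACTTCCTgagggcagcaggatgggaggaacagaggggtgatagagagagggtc
C1qc: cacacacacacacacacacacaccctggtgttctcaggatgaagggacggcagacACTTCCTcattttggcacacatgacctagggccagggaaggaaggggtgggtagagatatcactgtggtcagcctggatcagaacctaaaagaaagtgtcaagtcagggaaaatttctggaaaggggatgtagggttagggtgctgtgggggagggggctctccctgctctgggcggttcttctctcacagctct
C1qb lies at chr4:136886201-136886450 and C1qc at chr4:136892915-136893164, both on the minus strand. Both were picked for holding a match, after 6 motifs had been searched on both strands. AGGAAGT was found for 8 of 16 macrophage genes with a promoter in the table and for 8.80% of all 27025 genes, but also for 4 of 8 monocyte, 3 of 7 cDC2 and 5 of 10 T cell genes. For cDC1 genes the count was 1 of 9, for B cell genes 2 of 7, for leukocyte integrins 1 of 7 and for melanocyte genes 0 of 8. The longer form GAGGAAGT, which contains AGGAAGT, was found for 4 of 16 macrophage genes and 2.79% of all genes. It was also found for 1 of 8 monocyte and 1 of 7 leukocyte integrin genes. It had no match for 9 cDC1, 7 cDC2, 8 melanocyte, 10 T cell and 7 B cell genes. A match is a run of letters and was not tested as a binding site.

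Genes of cytotoxic lymphocytes were abundant in every library. Of the 20 cell type lists theirs had the highest mean sum, at 8340 ± 971 TPM (SD, n = 3), although the B cell list was higher in library 1. Ccl5 and Gzma led that sum, at means of 2547 and 1729 TPM, and the part of other cell types in the level of Ccl5 was not tested. The medians did not hold that order in every library. The conventional dendritic cell list had the higher median in library 1 (198 against 175 TPM), and the T cell list in library 2 (248 against 243 TPM). All 15 genes of the cytotoxic and NK cell list were at 10 TPM or more in each library, where 34.9% of all genes were, and their sum was 7983, 7597 and 9438 TPM. Gzma, a protease that killer cells release (chr13:113093825-113100981), was at 2146, 1444 and 1597 TPM and ranked 54th. Ncr1, the NKp46 receptor, which is close to specific for NK and related innate cells, was at 793, 748 and 506 TPM. Ncr1 thus exceeded Flt3 in every library, by 4.05, 8.78 and 6.54 times per length, a pair chosen after its values were seen. Klrb1c (NK1.1) was at 148, 137 and 84.0 TPM, Eomes at 160, 243 and 269 TPM, and Prf1 (perforin) at 267, 331 and 332 TPM.

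Not every gene of the list was even. Gzmb was at 334, 412 and 1401 TPM and Xcl1, the ligand of XCR1, at 175, 324 and 767 TPM, both highest in library 3. They were the only 2 of 15 over 4-fold apart (13.3%, against 8.69% of all genes of that level). Gzma over Gzmb was 6.43, 3.51 and 1.14, a pair also chosen after its values were seen. Gzmc, another granzyme, had 17, 148 and 654 reads, whereas Gzme had 0, 0 and 4 reads and Gzmg had none.

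T cell genes were also present in every library, and they moved as a block. Library 2 was highest for 17 of 17 and library 1 lowest for 16, with a sum of 1307, 5786 and 2980 TPM. Cd3e, part of the T cell receptor complex, was at 43.3, 246 and 177 TPM. Trac, the constant part of the receptor alpha chain, was at 79.7, 947 and 459 TPM. Cd8b1, a chain of the CD8 coreceptor of conventional CD8 T cells, was at 62.0, 539 and 266 TPM, and Cd4 at 125, 276 and 120 TPM; some dendritic cells carry CD4 as well. Of the 17, 11 were over 4-fold apart (64.7%, against 8.69% of all genes of that level).

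Library 1 was lowest for all 7 regulatory T cell genes. Of these genes 5 were over 4-fold apart (71.4%, against 8.69% of all genes of that level). Foxp3, the transcription factor that defines these cells, had 69, 504 and 301 reads, or 3.70, 40.7 and 17.6 TPM. Ctla4 was at 10.6, 67.4 and 154 TPM, Il2ra at 9.02, 48.8 and 83.1 TPM, and Ccr8 had 3, 104 and 64 reads. Ccl22 was lowest in the same library, which is given as 3 values side by side and not as a relation.

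**Figure D3:**
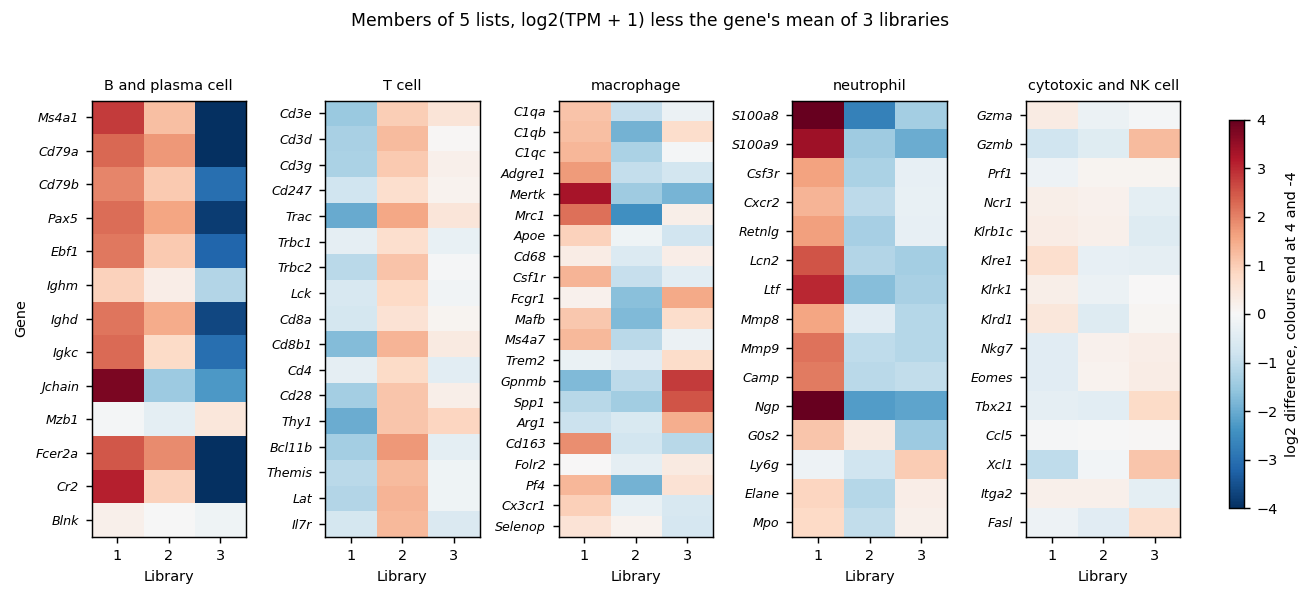
Log2(TPM + 1) of members of 5 cell type lists (all but 1 gene) less the gene's mean of 3 libraries (red above, blue below, colours ending at a difference of 4 in either direction), with libraries 1 to 3 as columns. The B cell list is red in library 1 and blue in library 3, the T cell list is red in library 2, the macrophage and neutrophil lists are mostly red in library 1, and the cytotoxic list is pale.

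B cell genes ranged from abundant to nearly absent. Cd79a, part of the B cell receptor, was at 430, 290 and 4.21 TPM, from 2553, 1142 and 23 reads. Ighd, the constant part of IgD on mature B cells that have not switched class, was at 540, 343 and 8.85 TPM, and Cr2 had 4716, 683 and 1 read. Library 3 was lowest for 13 of the 14 genes, and 12 were over 4-fold apart (85.7%, against 8.69% of all genes of that level). The list summed to 8502, 4074 and 731 TPM, of which Igkc and Ighm made up most. Jchain, which joins IgA and IgM chains in secreting cells, was at 124, 2.35 and 0.849 TPM and so was high in library 1 only. Blnk and Mzb1, the 2 genes not over 4-fold apart, are also used by other cells; plasmacytoid cells carry both.

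Neutrophil and red cell genes were largely those of library 1. S100a8, a calcium-binding protein of neutrophils, had 312, 0 and 4 reads, and 0 reads in library 2 allow up to 1.60 TPM. S100a9 was at 383, 12.7 and 8.18 TPM, and Ngp, a neutrophil granule protein, had 616, 1 and 2 reads. Library 1 was highest for 14 of 15 neutrophil genes, and the exception, Ly6g, had 2, 0 and 9 reads. Hbb-bs, a beta globin, had 442, 1 and 42 reads, and all 9 red cell genes measured were highest in library 1. Reads of the near-identical Hba-a1 and Hba-a2 may have been split between them.

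Markers of mast cells and basophils were close to 0. Mcpt8, Fcer1a and Prss34 had no read outside library 1 and at most 9 reads in it, and Tpsb2 had none. Of this list Kit (108, 42.9 and 50.8 TPM) and Cma1 (78.5, 49.9 and 44.6 TPM) alone passed 10 TPM. Among the eosinophil genes Ccr3 had 457, 13 and 19 reads, while Epx, which defines these cells, had 1, 0 and 3.

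Tumour and stromal RNA was low, with 1 exception. Of 9 fibroblast genes 8 stayed under 1 TPM in every library, among them Col1a1 (0.411, 0.169 and 0.448 TPM), and Lum had no read. Of the endothelial genes, Cdh5 was at 7.87, 52.0 and 24.9 TPM and Kdr at 8.61, 15.9 and 22.0 TPM, but Tek, Tie1, Cldn5 and Emcn had at most 3 reads in any library. Cdh1 (E-cadherin), at 13.2, 65.6 and 110 TPM, and Epcam, at 12.3, 13.8 and 20.1 TPM, were the only epithelial genes above 10 TPM. Krt5 had no read.

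The exception was the melanocyte list in library 3, which summed to 9.83, 7.71 and 139 TPM. Tyrp1, an enzyme of pigment synthesis, had 4, 1 and 449 reads. Dct, another such enzyme, had 1, 2 and 756 reads, and Pmel, a fibre protein of pigment granules, had 5, 2 and 222. Library 3 was highest for 11 of the 13 genes. Mitf, which mast cells and macrophages use too, was spread evenly at 8.15, 3.88 and 7.76 TPM, and Gpr143 had no read in any library.

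The windows of Tyrp1 (chr4:80833963-80834212, plus strand) and Dct (chr14:118052247-118052496, minus strand), again RefSeq on GRCm38.p6 and picked for holding a match, are shown because, of the genes highest in library 3, these 2 stood furthest above the next library, by 32.2 and 31.3 times on TPM + 1. Capitals mark TCATGTG or its reverse complement, the M-box that MITF can bind.
Tyrp1: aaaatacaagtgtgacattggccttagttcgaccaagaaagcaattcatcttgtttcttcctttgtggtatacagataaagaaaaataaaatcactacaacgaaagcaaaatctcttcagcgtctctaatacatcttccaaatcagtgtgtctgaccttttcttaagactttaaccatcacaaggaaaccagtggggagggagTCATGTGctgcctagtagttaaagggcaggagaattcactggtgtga
Dct: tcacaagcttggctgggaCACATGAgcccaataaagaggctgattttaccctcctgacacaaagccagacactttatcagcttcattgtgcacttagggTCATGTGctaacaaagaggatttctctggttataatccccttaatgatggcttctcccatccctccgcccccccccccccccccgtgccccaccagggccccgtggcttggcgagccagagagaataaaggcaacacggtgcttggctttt
Counted from the start site, the first base of the Tyrp1 match lies at -47, and those of the 2 Dct matches at -232 and -151. The M-box was found for 6 of 8 melanocyte genes with a promoter in the table and for 3.72% of all genes. It was also found for 2 of 16 macrophage genes, C1qb and C1qc, in lower case above, and for 1 of 7 B cell genes, Blnk. Of the other motifs searched, that of interferon response elements (GAAA, any 2 bases, GAAA) was found for 3.46% of all genes. It was found for 9 of 19 genes of the type I interferon list and 7 of 9 of the interferon gamma list. The T-box AGGTGTGA was found for 1 of 13 cytotoxic genes and 1.3% of all genes. The EBF motif (TCCC, any 2 bases, GGGA) was found for 0 of 7 B cell genes and 0.914% of all genes. At such low shares, lists of 13 and 7 genes are too short to read.

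**Figure D4:**
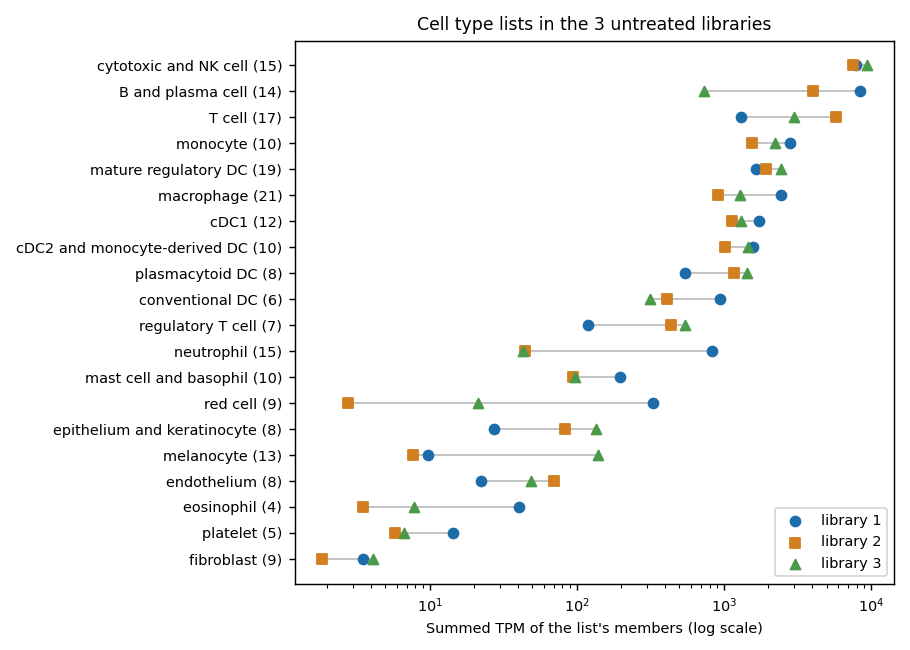
Summed TPM (log scale) of the members of 20 cell type lists by library, with the number of genes measured in brackets. The cytotoxic and NK list lies at 7597 to 9438 TPM in all 3 libraries, while the B cell list runs from 731 to 8502 TPM and the neutrophil list from 42.9 to 831 TPM.

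Among the 24 program lists, the 2 of antigen presentation had the highest mean summed TPM. By mean median percentile the dissociation stress list stood higher, at 99.2 against 98.5 for class I and 97.1 for class II. The 12 class II genes measured summed to 36698, 19210 and 19625 TPM, and library 1 was highest for all 12. Of the 12, 4 were over 4-fold apart (33.3%, against 8.69% of all genes of that level). All 4 were highest in library 1, against 55.3% of all genes over 4-fold apart. H2-Ab1, a class II beta chain, was at 5863, 2648 and 2918 TPM, and H2-Aa, its partner, at 3113, 1168 and 1120 TPM. Ciita, the master activator of class II genes, was at 306, 116 and 71.7 TPM. H2-Ob and H2-Eb2, named here after their values were seen, were at 189, 68.0 and 14.7 TPM and at 113, 44.4 and 5.59 TPM and so were lowest in library 3. B cells carry H2-O, library 3 had the least B cell RNA, and its part was not tested. Class I genes were steadier than class II genes, with median ratios of 1.38 and 2.50. None of the 14 class I genes was over 4-fold apart, a count near the 8.69% of all genes of that level. The class I sums were 15333, 17083 and 21688 TPM. Nlrc5, the activator of class I genes, was at 156, 152 and 156 TPM (chosen after its values were seen).

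Costimulatory ligands were led by Cd83 at 362, 176 and 411 TPM. Cd86, which engages CD28 and CTLA-4, was at 120, 53.8 and 88.0 TPM, and Cd80, its relative, at 36.6, 9.19 and 36.6 TPM. All 3 were lowest in library 2. Tnfsf9 (4-1BB ligand) was at 13.7, 14.3 and 163 TPM, and Cd70 had at most 3 reads.

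Among inhibitory molecules Tigit, a receptor of T and NK cells, was highest on average, at 44.8, 167 and 433 TPM. Havcr2 (TIM-3), which dendritic cells and macrophages also carry, was at 281, 49.2 and 80.9 TPM and Lag3 at 52.7, 103 and 223 TPM. Havcr2 was thus highest in library 1, and the other 2 were highest in library 3. Vsir (VISTA) and Tnfrsf14 varied little, at 130, 153 and 103 TPM and at 90.7, 77.4 and 88.0 TPM. Ido1, a tryptophan-degrading enzyme, had 2, 0 and 0 reads.

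The chemokines Ccl3 and Ccl4, which draw T cells and monocytes, were even, at 543, 450 and 623 TPM and at 456, 332 and 416 TPM. Others were not: 8 of 12 chemokines with a mean of at least 10 TPM were over 4-fold apart (66.7%, against 8.69% of all genes of that level). Library 3 was highest for 6 of the 8, against 26.2% of all genes over 4-fold apart. Cxcl9 and Cxcl10, interferon-induced ligands of CXCR3, were at 37.5, 32.2 and 170 TPM and at 9.80, 11.5 and 171 TPM. Cxcl2, which draws neutrophils, was at 6.99, 3.58 and 186 TPM, although the neutrophil genes were not high in library 3. The other 2, Ccl6 (168, 18.5 and 77.3 TPM) and Ccl9 (47.9, 9.47 and 45.2 TPM, chosen after its values were seen), were highest in library 1 and lowest in library 2. Cxcr4, the receptor for CXCL12, led the receptors after Ccr7, at 129, 150 and 441 TPM, and Cxcr1 had no read.

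Cytokines over 4-fold apart were mostly highest in library 3 too. Il1b, an inflammatory cytokine of myeloid cells, was at 162, 30.6 and 598 TPM. Ifng, made by NK and T cells, was at 92.4, 107 and 534 TPM, and Tnf at 77.6, 77.4 and 315 TPM. Il12b, a subunit of IL-12 made by dendritic cells, was at 21.7, 7.71 and 67.2 TPM. All 4 were highest in library 3 and over 4-fold apart. Of 17 cytokines with a mean of at least 10 TPM, 9 were over 4-fold apart (52.9%, against 8.69% of all genes of that level). Library 3 was highest for 7 of the 9, against 26.2% of all genes over 4-fold apart. Ltb was lowest in library 3, at 215, 350 and 75.9 TPM. Ifnb1 (0, 0 and 2 reads) and Il13 (0, 2 and 0 reads) were near 0.

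The 2 interferon programs differed in their spread. The type I interferon list had an even sum, at 1954, 1780 and 1801 TPM. Of its genes 1 of 24 was over 4-fold apart, a count near the 8.69% of all genes of that level. Their median ratio of 1.83 was above the 1.60 of all such genes. Irf7, a regulator of the response, was at 124, 146 and 134 TPM, and Ifi27l2a at 409, 366 and 329 TPM. The interferon gamma list was less even, with a sum of 620, 696 and 1761 TPM and a median ratio of 2.80. Of its 11 genes 4 were over 4-fold apart (36.4%, against 8.69% of all genes of that level). All 4 were highest in library 3, against 26.2% of all genes over 4-fold apart. Gbp2, a GTPase of cell-autonomous defence, was at 61.9, 95.1 and 386 TPM, and Irf1 at 185, 192 and 478 TPM. Library 3 was also the library with most Ifng, and a relation between the levels was not tested.

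Glycolysis and hypoxia genes were highest in library 3 for 20 of 22. Of 19 with a mean of at least 10 TPM, 5 were over 4-fold apart (26.3%, against 8.69% of all genes of that level). All 5 were highest in library 3, against 26.2% of all genes over 4-fold apart. Vegfa, the growth factor of blood vessels and a gene of the hypoxia response, was at 21.0, 32.1 and 451 TPM. Gapdh, often used as a reference gene, was at 219, 351 and 724 TPM, a ratio of 3.30. Slc2a1, the glucose carrier GLUT1, was at 40.5, 78.3 and 204 TPM (chosen after its values were seen). TGF-beta genes leaned the same way, with Smad7, an inhibitor of the pathway that it induces, at 89.5, 240 and 647 TPM, and Tgfb1 at 250, 219 and 486 TPM. Library 3 was the one with melanocyte RNA, and the part of tumour cells in these levels was not tested.

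Cell cycle genes varied little. Their median ratio was 1.42, against 1.60 over all genes with a mean of at least 10 TPM. None of the 18 at that level was over 4-fold apart, a count near the 8.69% of all such genes. The sum was 1128, 1397 and 1345 TPM. Mki67, a marker of dividing cells, was at 110, 124 and 119 TPM, and Top2a at 56.2, 57.3 and 63.9 TPM.

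Genes that digestion of tissue is known to switch on were among the highest of all. All 16 of the dissociation stress list were at 10 TPM or more in every library, where 34.9% of all genes were. Their median gene stood at the percentiles of 99.3, 99.1 and 99.3. Junb was at 1146, 2749 and 4396 TPM, and Fos at 1559, 1858 and 778 TPM. Dusp1, a phosphatase induced by stress, was at 701, 662 and 698 TPM (chosen after its values were seen).

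Receptors of myeloid cells did not follow one library. Csf1r, the receptor macrophages depend on, was at 262, 52.9 and 76.1 TPM. Of the uptake receptors Axl was at 103, 20.1 and 31.5 TPM, Cd36 at 97.8, 14.9 and 26.8 TPM and Lrp1 at 94.9, 16.3 and 31.8 TPM. Of 9 uptake genes with a mean of at least 10 TPM, 6 were over 4-fold apart (66.7%, against 8.69% of all genes of that level). All 6 were highest in library 1, against 55.3% of all genes over 4-fold apart. The lectin Clec4a4, which marks some cDC2, had 563, 18 and 2 reads. Of the 6 Fc receptor genes, library 3 was highest for 4 and library 1 for 2, and library 2 was lowest for all 6. Of these genes 2 were over 4-fold apart (33.3%, against 8.69% of all genes of that level). Fcgr4 was at 91.9, 6.18 and 34.9 TPM and Fcgr1, the high-affinity receptor for IgG, at 14.9, 3.43 and 39.3 TPM. Fcer1g, the signalling chain they share with NK receptors, was at 928, 598 and 982 TPM. Among the sensors, Nlrp3, the inflammasome core, was highest in library 3 (75.8, 17.5 and 171 TPM), and Tlr9 was even (135, 119 and 87.1 TPM). Of the lysosomal genes Psap was at 2902, 2323 and 3077 TPM, Lamp1 at 315, 289 and 308 TPM, and 2 of 20 with a mean of at least 10 TPM (10.0%, against 8.69% of all genes of that level) were over 4-fold apart, Spp1 and Lgals3 (171, 73.8 and 369 TPM, chosen after its values were seen).

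Alternative activation genes of macrophages were mixed, with a median percentile of 64.7, 49.0 and 61.6. Retnla had 0, 2 and 5 reads and Arg1 5, 5 and 55. Higher were Il4ra, the receptor for IL-4 and IL-13, at 123, 191 and 372 TPM, and Stat6, at 211, 175 and 142 TPM. Mrc1, also of this list, was at 75.7 TPM in library 1 only, with 2.09 and 18.8 TPM in the others. Of the complement genes Cfp (properdin) led at 228, 85.6 and 130 TPM, and Vsig4, a complement receptor of resident macrophages, had 1, 0 and 0 reads. Among leukocyte integrins Itgb2, the beta chain that pairs with CD11c, was at 1105, 915 and 1099 TPM, above Itgax in each library, and Itgam (CD11b) was at 95.6, 28.0 and 67.4 TPM.

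**Figure D5:**
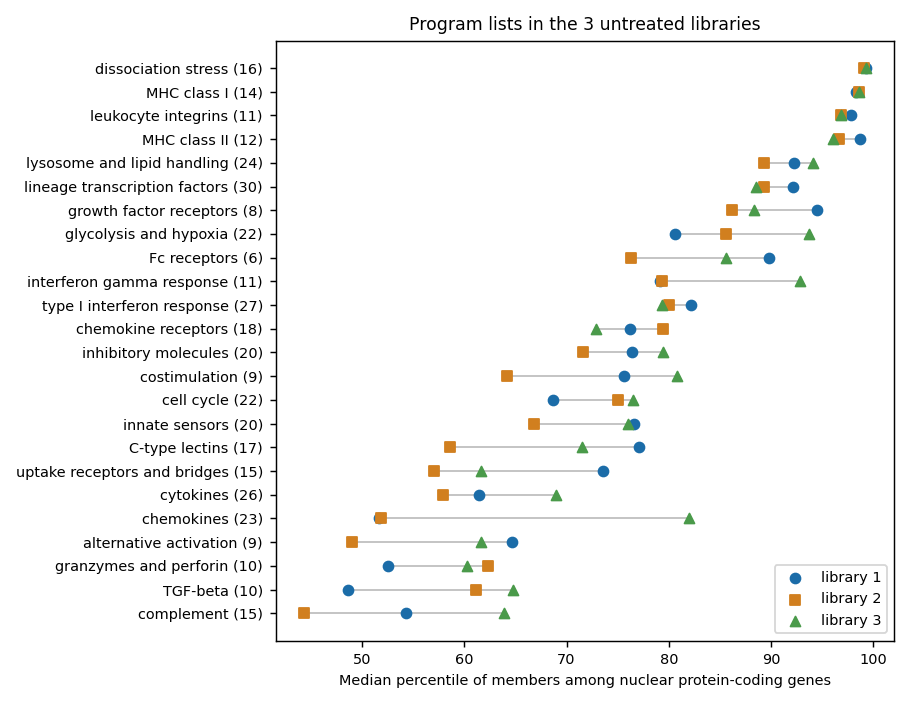
Median percentile of the members of 24 program lists among nuclear protein-coding genes, by library, with the number of genes measured in brackets. Dissociation stress (99.1 to 99.3) and MHC class I (98.3 to 98.6) are high and close together, while chemokines run from 51.7 to 82.0.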

How the data were processed

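RNA of sorted cells from 12 samples was sequenced as total RNA, with a stranded low-input kit and paired reads of 100 bases, and the 3 untreated samples were used. Per the submitters' processing notes, the authors used FastQC, Trimmomatic, STAR, featureCounts and DESeq2 with the mouse build mm10; no source used here gives their versions, the annotation or the strand setting. The deposited signal values are read counts that the authors divided by 1 size factor per sample. Dividing each column by its smallest step gave whole reads for 100.0% of values within 0.001.

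Of 55401 gene identifiers, 55141 (99.53%) matched GENCODE vM21 by Ensembl identifier without version, 792 of them under another version number; the 260 others held at most 0.0396% of a library's reads. TPM was computed over 22378 nuclear protein-coding genes with the union of exons as length. These genes took 77.8%, 73.6% and 78.0% of reads. Immunoglobulin and T cell receptor segments were kept among them, a choice made after the data were seen. Ifi30, Cxcl11, Mx2 and Clec7a have another gene type in that annotation and were left out, and Ahsp was not analysed here. The values of 2 list genes are not reported here, and both stay in the counts and sums of their lists.

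The 3 libraries differed from each other by far more than sampling noise (chi-square per degree of freedom of 78.5 to 157), so none was a copy. Limits from 0 reads are those of 3 reads and cover counting error only. No test was used; the share of all genes past the same threshold stands in its place. The members and lists (20 cell type lists and 24 program lists, 550 genes) were chosen with earlier results of these data known. The genes named were all cell type list members, the 30 highest genes, up to 8 of highest mean in each program list with members under 3 reads, and per library the 10 genes it was highest and the 10 it was lowest for. Near-identical genes (Hba-a1 and Hba-a2, Klra, H2, Ifit3) may share reads. The steps were tested on simulated data that held counting noise only, besides fold changes put in by design. Such data say nothing of the true spread between libraries. Python 3.11.15, numpy 2.4.6, pandas 2.3.3, scipy 1.17.1 and matplotlib 3.10.9 were used.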

Additional observations from a re-analysis of the deposited data

How the results depend on the processing

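No paired analysis was possible because the 3 libraries are 1 group and no test was run. With all annotated genes in the base of TPM, 7424 genes in place of 11250 reached 1 TPM in all libraries, and 171 in place of 790 were over 4-fold apart; nuclear protein-coding genes held only 12.9%, 7.08% and 9.18% of that TPM. The number over 4-fold apart was 1510 with a mean of at least 1 TPM, 2765 for a fold of 2 and 336 for a fold of 8. With no filter on the mean it had to be the same 1510. On TPM + 1, any gene over 4-fold apart has a mean above 1 TPM. Without each library in turn it ran from 294, without library 1, to 604, without library 2, and was 354 without library 3. Without immunoglobulin and T cell receptor segments, an alternative chosen after seeing the data, it was 627. The log2 ratio of macrophage to cDC1 sums was −1.36 on deposited normalized counts with no length and −0.46 with medians, and ran from −0.16 to 0.23 without each library in turn. The percentile of Itgax moved by less than its SD under every alternative run. With all annotated genes in the base, the nuclear protein-coding genes of a library are all scaled by the same factor, so their ranks cannot change. The percentile of Itgax and the median percentile of 46 of 46 lists were therefore fixed in that alternative. The summed levels fell by that scaling, 42 of 46 of them by more than their SD.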

Other observations

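Genes outside the lists also set the libraries apart, and those given here follow the rule of the 10 most extreme genes of each library. Library 1 held Slc40a1, the iron exporter of macrophages that recycle red cells, at 3029, 4 and 3 reads. It also held Cd5l, a secreted protein of tissue macrophages, at 556, 9 and 6 reads, and Fcna, a ficolin of macrophages and monocytes, at 504, 1 and 0 reads. Library 2 held Lef1, a transcription factor of naive T cells, at 25.1, 150 and 24.4 TPM, with Cd40lg, the helper T cell ligand of CD40, at 8.83, 85.8 and 6.41 TPM and Izumo1r, a folate receptor of regulatory and other CD4 T cells, at 5.50, 63.7 and 6.79 TPM. Library 3 held Areg, a growth factor of the EGF family, at 2.22, 10.7 and 204 TPM, and Fosl1, an AP-1 factor, at 1.09, 2.55 and 41.0 TPM. Apol7c, an apolipoprotein that dendritic cells are known to induce, had 2814, 944 and 8 reads and so was lowest in library 3, beside the B cell genes Fcmr (2684, 1270 and 26 reads) and Bank1 (5221, 1534 and 46 reads).

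The receptor segments, chosen after their values were seen, followed the lineage genes. The 115 Ighv segments summed to 2104, 582 and 5.32 TPM, and 94, 72 and 4 of them had a read. The 22 Trbv segments summed to 156, 1031 and 378 TPM, with 20 of them read in each library, and the most abundant, Trbv3, took 10.0%, 16.2% and 27.3% of the sum. Igha, the constant part of IgA, had 1433, 1 and 12 reads and, like Jchain, was highest in library 1. Trdc, the constant part of the T cell receptor delta chain, was even at 51.9, 45.2 and 52.1 TPM, unlike Trac. The 11 Klra genes, Ly49 receptors of NK cells, summed to 1928, 1188 and 1362 TPM.

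The X-inactivation RNA Xist had 35074, 16065 and 17818 reads, and the Y-linked genes Ddx3y, Eif2s3y, Kdm5d and Uty had 0 reads in all 3 libraries of these mice, whose sex the labels do not give.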
